A study of Homo sapiens with 12 samples.

Results

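The miR-15/16 family is a group of microRNAs (miRNA) known for holding back the cell cycle, read here in extracellular vesicles (EV) released by human induced pluripotent stem cells (hiPSC) and by the cardiac cells made from them. Its 8 members were chosen by name: hsa-miR-15a-5p, hsa-miR-15b-5p, hsa-miR-16-5p, hsa-miR-195-5p, hsa-miR-497-5p, hsa-miR-424-5p, hsa-miR-424-3p and hsa-miR-503-5p. Of these, 7 were among the 1133 miRNA of the count table, and 3 (miR-15b-5p, miR-16-5p and miR-503-5p) passed the filter on low values, as did 367 miRNA in all. miR-497-5p was not analysed here.

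The study sequenced small RNA from EV that the authors separated from conditioned culture medium by density gradient, as 3 preparations from independent cultures in each of 4 groups. All cells came from the established hiPSC line iPS(IMR90)-4, so every group shares 1 genetic background, and the groups compare stages of 1 cardiac differentiation. Each stage had its own culture medium. hiPSC-EV were collected at day 0, from undifferentiated cells, after 24 h of conditioning. CPC-EV came from cardiac progenitor cells at day 6, after 72 h. CMi-EV came from immature cardiomyocytes at day 15, after 48 h. CMm-EV came from more mature cardiomyocytes at day 35, kept in a maturation medium without glucose, also after 48 h. Stage, day and medium go together in these groups and cannot be told apart, and conditioning time differed too except between CMi-EV and CMm-EV. Culture format changed as well, from monolayers for hiPSC-EV and CPC-EV to suspended aggregates for CMi-EV and CMm-EV.

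A miRNA guides Argonaute proteins to messenger RNAs through its seed, a short stretch near its 5′ end, and lowers the stability and translation of those it pairs with. The miR-15/16 family is known for repressing D-type and E-type cyclins, cyclin-dependent kinase CDK6, checkpoint kinases and the survival factor BCL2, and its loss releases proliferation, as in deletions of the MIR15A and MIR16-1 locus in chronic lymphocytic leukaemia. In the heart, miR-195 and its relatives are known for restraining the division of cardiomyocytes around birth.

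The mature sequences are shown because a shared seed defines the family and not every member carries it. They were taken from RefSeq (build GRCh38.p14), which held all 8 of the 8 members, and capitals mark the seed, bases 2 to 8 from the 5′ end. The seed AGCAGCA is shared by 6 members.
miR-15a-5p: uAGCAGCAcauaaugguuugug
miR-15b-5p: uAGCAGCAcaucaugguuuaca
miR-16-5p: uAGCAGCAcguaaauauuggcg
miR-195-5p: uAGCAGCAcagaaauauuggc
miR-497-5p: cAGCAGCAcacugugguuugu
miR-424-5p: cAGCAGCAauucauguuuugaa
miR-503-5p differs in the last base of the seed, AGCAGCG.
miR-503-5p: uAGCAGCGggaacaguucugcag
miR-424-3p comes from the other arm of the MIR424 hairpin, and its seed AAAACGU has no likeness to the others, so it is a member by locus and not by seed.
miR-424-3p: cAAAACGUgaggcgcugcuau

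Outside the seed the members diverge. Counted position by position from the 5′ end, miR-15a-5p and miR-15b-5p share 18 of 22 bases, and miR-16-5p and miR-195-5p share 19 of 21. miR-15b-5p and miR-16-5p, the most abundant members here, share 14 of 22, with an unbroken match over the first 9 bases. miR-503-5p shares 12 of 22 with miR-15b-5p and 13 of 22 with miR-16-5p.

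The members lie in clusters of neighbouring hairpins (GRCh38.p14, GENCODE release 44). MIR15B (chr3:160404588-160404685) and MIR16-2 (chr3:160404745-160404825) lie 59 bases apart on the plus strand in an intron of SMC4, a condensin gene. MIR16-1 (chr13:50048973-50049061) and MIR15A (chr13:50049119-50049201) lie 57 bases apart on the minus strand in the long non-coding gene DLEU2, the former in an intron and the latter overlapping an exon in part. MIR195 (chr17:7017615-7017701) and MIR497 (chr17:7017911-7018022) lie on the minus strand, each within an exon of MIR497HG. MIR503 (chrX:134546328-134546398) and MIR424 (chrX:134546614-134546711) lie 215 bases apart on the minus strand, each overlapping in part an exon of MIR503HG, on the same strand as MIR542, MIR450A1 and MIR450B. Mature miR-16-5p is identical from MIR16-1 and MIR16-2, so its reads cannot be assigned to 1 of these 2 loci.

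Read counts mapped to miRNA were 703418, 2511810 and 5598296 in hiPSC-EV, 1680155, 3380609 and 1539043 in CPC-EV, 2163511, 1686611 and 1364736 in CMi-EV, and 984868, 6272456 and 5072950 in CMm-EV, for replicates 1 to 3. Levels are given as CPM, the count over the library's miRNA total times 1e+06, after TMM scaling, edgeR's trimmed mean correction for library composition, with factors from 0.483 (CMm-EV replicate 3) to 1.75 (CPC-EV replicate 3). A library listed at 0 can hide as many as 3 counts, and this floor was lowest in hiPSC-EV replicate 3 (0.638 CPM) and highest in CMm-EV replicate 1 (3.63 CPM). Such floors cover counting error only. In bulk vesicle RNA, fewer vesicles that carry a miRNA and less of it per vesicle cannot be told apart.

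The groups were checked against marker miRNA of their cells. The summed level of the 5 pluripotent markers (miR-302a-3p, miR-302b-3p, miR-302c-3p, miR-302d-3p and miR-367-3p) averaged 186100, 65540, 5363 and 183 CPM by stage, from hiPSC-EV to CMm-EV. That of the 5 cardiomyocyte markers (miR-1-3p, miR-133a-3p, miR-208a-3p, miR-208b-3p and miR-499a-5p) averaged 58.9, 1041, 49460 and 101400 CPM in the same order. The last mean rests on CMm-EV replicate 3: the CMm-EV libraries were at 37610, 51190 and 215400 CPM. Those of CMi-EV were at 52370, 75330 and 20680 CPM, so these groups overlapped. All 10 markers were called in the 4-group test, beside 184 of all 367 miRNA (50.1%). miR-208b-3p and miR-499a-5p passed the filter only through CMm-EV, the group in which they were highest, so their calls add no support.

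**Figure D1:**
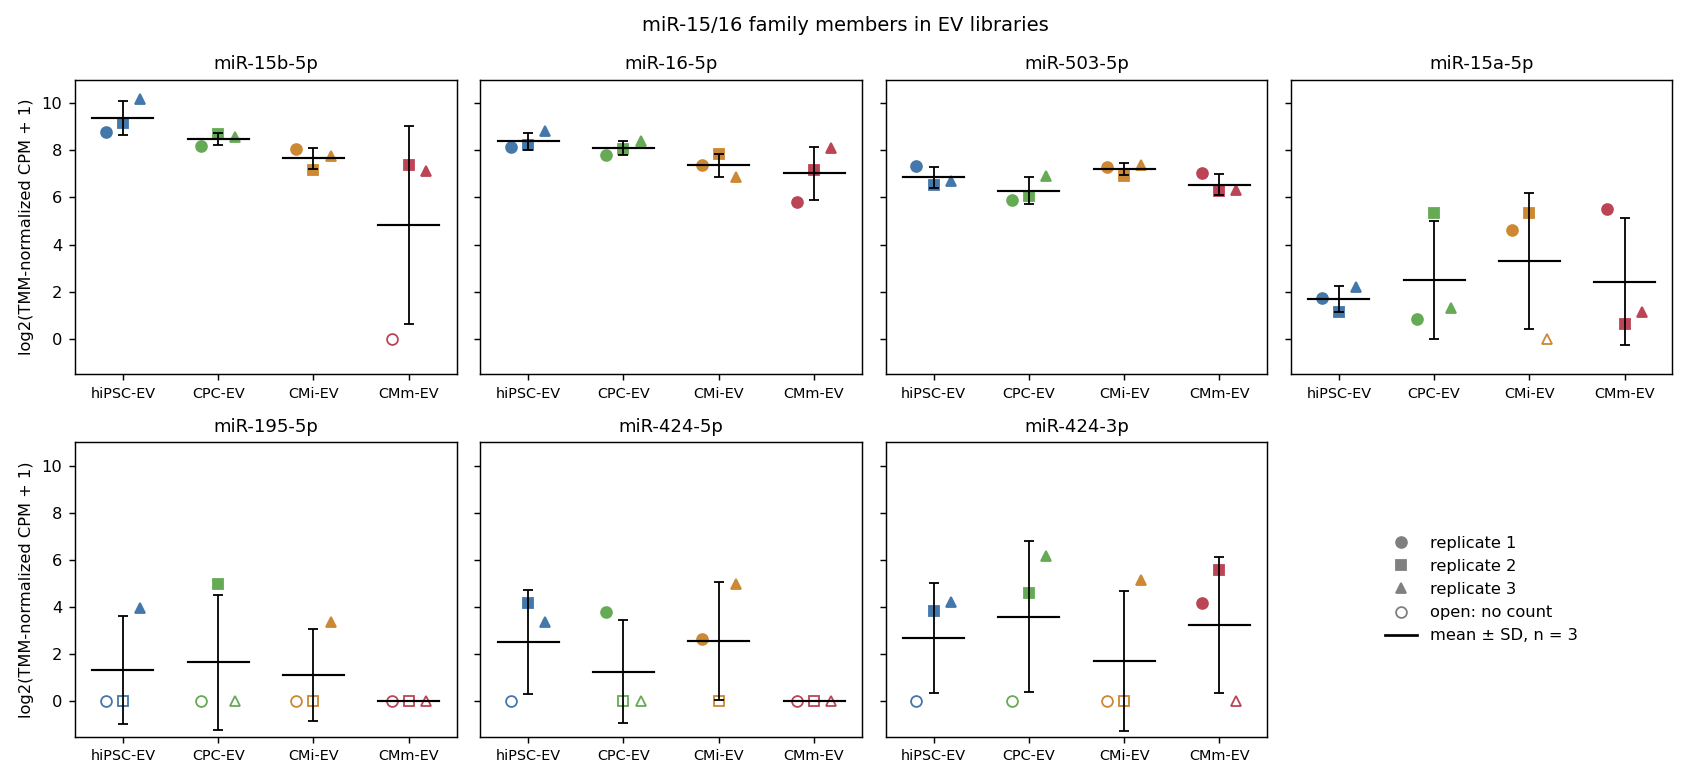
Level of the 7 members with counts in each of the 12 libraries, as log2 of TMM-normalised CPM plus 1, by EV group. Symbols mark replicates, open symbols mark libraries with no count, and lines give the mean and SD of the log2 values (n = 3). miR-503-5p is the narrowest of the 3 members in the top left panels, and miR-15b-5p has 1 open symbol, CMm-EV replicate 1.

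MIR15B gives the most abundant member in hiPSC-EV. miR-15b-5p was read at 439, 570.2 and 1148 CPM in hiPSC-EV replicates 1 to 3. In CPC-EV it was at 289.9, 408 and 382 CPM, and in CMi-EV at 262, 144 and 218 CPM. The CPC-EV libraries all lay below the hiPSC-EV libraries and above the CMi-EV libraries. In CMm-EV it was at 0, 166 and 137 CPM, so that replicate 1, the library with the fewest miRNA counts of its group, held no miR-15b-5p read against a floor of 3.63 CPM. The group means were 719 ± 377.5, 360.1 ± 62.1, 208 ± 59.4 and 101 ± 88.7 CPM (SD, n = 3), in the order hiPSC-EV, CPC-EV, CMi-EV, CMm-EV. All CPC-EV and CMi-EV libraries lay below the lowest hiPSC-EV library, while CMi-EV and CMm-EV overlapped. Among all miRNA of the table, the mean ranked 73rd, 83rd, 108th and 127th in that order.

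miR-16-5p, the other main repressor of the G1 cyclins in the family, was read in all 12 libraries. It was at 279, 303 and 446 CPM in hiPSC-EV and at 226, 268 and 336.5 CPM in CPC-EV. In CMi-EV it was at 165, 231 and 117 CPM. In CMm-EV it was at 55.7, 141 and 270.0 CPM, with the widest relative spread of the 4 groups and replicate 1 again the lowest. The means were 342.5 ± 90.1, 277 ± 55.9, 171 ± 57.1 and 155.5 ± 108 CPM (SD, n = 3). Every CMi-EV and CMm-EV library lay below every hiPSC-EV library, and neighbours in this order of groups overlapped. The mean ranked 97th, 96th, 118th and 113th.

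miR-503-5p, from the X-linked cluster and with the seed AGCAGCG, kept to a narrower range. It was at 161, 91.6 and 102 CPM in hiPSC-EV and at 58.5, 65.8 and 121 CPM in CPC-EV. In CMi-EV it was at 155, 119 and 166 CPM, and in CMm-EV at 132, 75.9 and 79.5 CPM. The means were 118 ± 37.4, 81.8 ± 34.3, 147 ± 24.8 and 95.8 ± 31.4 CPM (SD, n = 3), and neighbours in the order of the means, CMi-EV, hiPSC-EV, CMm-EV and CPC-EV, overlapped. Its ranks ran from 125th in CMi-EV to 167th in CPC-EV.

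The other 4 members with counts were sparse and did not pass the filter, which asked for 5 CPM or more in all 3 libraries of some group. miR-15a-5p, close in sequence to miR-15b-5p but from the other locus, was read in 11 libraries with 0 to 162 counts. It was above 20 CPM only in CPC-EV replicate 2 at 40.1, CMi-EV replicates 1 and 2 at 23.3 and 39.2, and CMm-EV replicate 1 at 44.8 CPM. Its highest level was thus in the library in which miR-15b-5p was not read. miR-195-5p, the member best known in cardiomyocytes, was read in 3 libraries, at 14.9 CPM in hiPSC-EV replicate 3, 30.7 in CPC-EV replicate 2 and 9.39 in CMi-EV replicate 3, and was listed at 0 in CMm-EV. miR-424-5p was read in 5 libraries, at most at 31.1 CPM (CMi-EV replicate 3), and was listed at 0 in all CMm-EV libraries. miR-424-3p was read in 7 libraries, at most at 71.5 CPM (CPC-EV replicate 3), and in CMm-EV at 16.9, 46.5 and 0 CPM. In no group were all 3 libraries of miR-195-5p, miR-424-5p or miR-424-3p above 0.

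Summed over the members read, the family took a small share of the miRNA counts. It was 0.108%, 0.1% and 0.146% in hiPSC-EV and 0.0915%, 0.0999% and 0.160% in CPC-EV. It was 0.0643%, 0.0604% and 0.0585% in CMi-EV, and 0.0209%, 0.0259% and 0.0236% in CMm-EV. All CMi-EV libraries lay below all hiPSC-EV and CPC-EV libraries, and all CMm-EV libraries below all others. These are shares without the composition factor. With TMM scaling the summed level averaged 1206 ± 467, 778.8 ± 169.8, 573.5 ± 38.9 and 389 ± 124 CPM (SD, n = 3), and the ranges of CMi-EV, 533 to 611 CPM, and CMm-EV, 249 to 488 CPM, did not overlap. CPC-EV, at 588 to 913 CPM, then overlapped both CMi-EV and hiPSC-EV (880.8 to 1741 CPM), so the gap between CPC-EV and CMi-EV seen in the shares was not there with TMM scaling. No test was made on these sums.

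Within the family, miR-15b-5p held on average 57.6%, 46.7%, 35.9% and 22.2% of the members' counts by stage, from hiPSC-EV to CMm-EV (SD 8.08, 4.16, 8.06 and 19.96, n = 3). miR-16-5p held 29.2%, 35.8%, 30.2% and 36.8%. miR-503-5p held 11.1%, 10.4%, 25.5% and 28.9%, and its CMi-EV libraries, at 22.3% to 28.8%, lay above every hiPSC-EV and CPC-EV library. In CMm-EV the split was uneven between libraries. Replicate 1 held 0% miR-15b-5p, 22.3% miR-16-5p, 17.96% miR-15a-5p and 52.9% miR-503-5p.

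**Figure D2:**
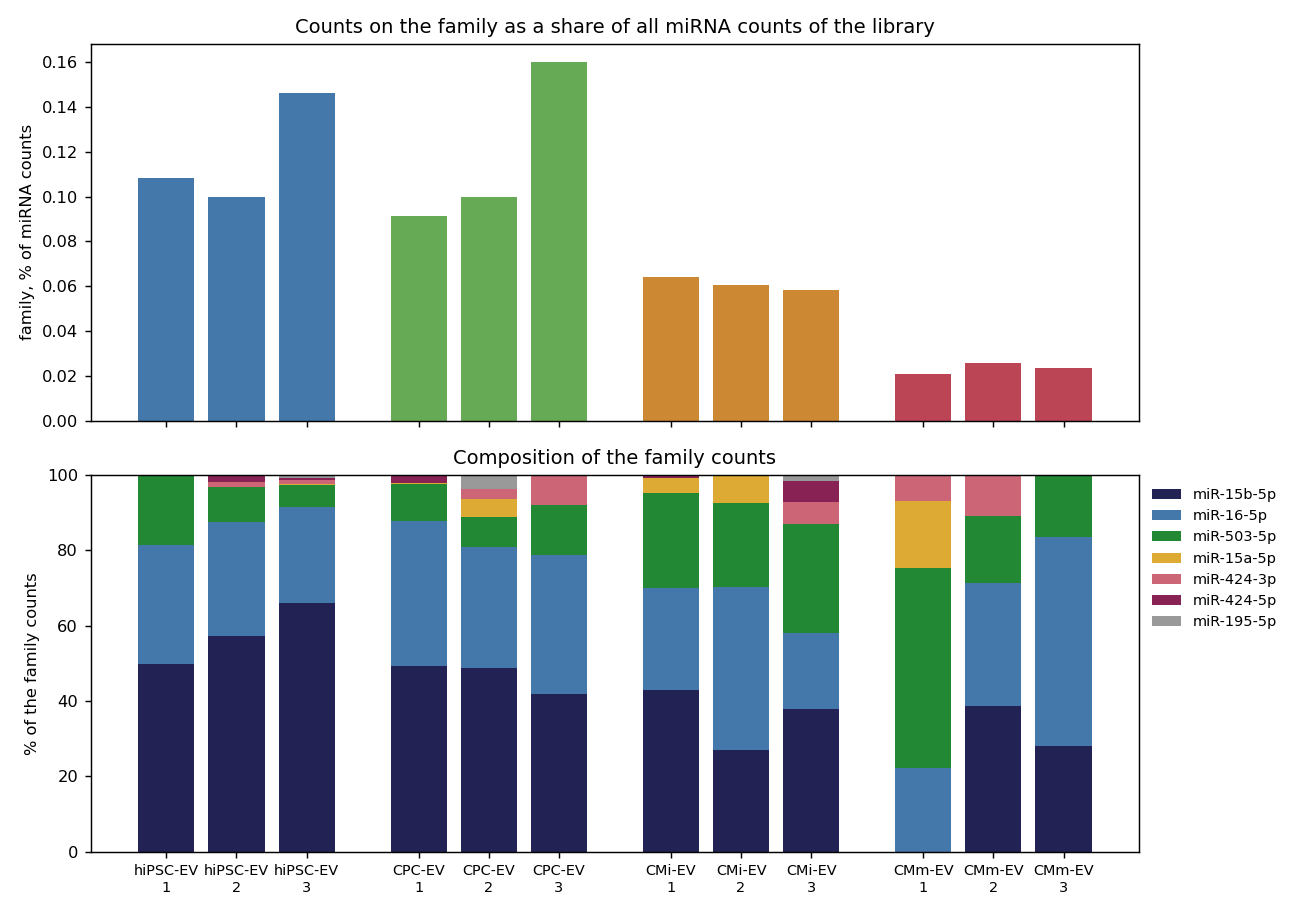
Bars for each of the 12 libraries show the family's counts as a percent of all miRNA counts (top) and the percent of the family's counts held by each member (bottom). The share of all counts is 0.0915% or more in the hiPSC-EV and CPC-EV libraries and 0.0643% or less in the others, and miR-15b-5p holds 49.8% to 65.9% of the family in hiPSC-EV and 0% to 38.6% in CMm-EV.

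The first test asked whether a miRNA differed in any way between the 4 EV groups (edgeR quasi-likelihood F-test, called at a false discovery rate, FDR, of 0.05). Over all miRNA 184 of 367 were called (50.1%), and of the members 0 of 3. None of the 3 reached an unadjusted p of 0.05 in edgeR (0 of 3), beside 210 of all 367 miRNA. DESeq2 called 0 of the 3 as well, beside 193 of 367. The FDR was 0.176 for miR-15b-5p, 0.247 for miR-16-5p and 0.595 for miR-503-5p. For miR-15b-5p this rests on 1 library: without CMm-EV replicate 1 its FDR was 0.0107, in a range over all alternatives from 0.000728 (no filter on low values) to 0.451. A miss at this threshold does not show equal levels. The p-values of edgeR and DESeq2 weigh differences between groups against the spread between these preparations, 3 in each group.

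The 6 comparisons of 2 groups asked which step of the differentiation a difference belongs to. A miRNA was called when its log2 fold change was 1 or more, up or down, at an FDR of 0.05. These comparisons share libraries, so they are not independent of each other. Each was scaled within its own 6 libraries, so a fold change can differ from the ratio of the means above. The share of all miRNA whose groups did not overlap was not computed. A lack of overlap in a member is therefore not read as a trait of the family.

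From hiPSC-EV to CPC-EV, 93 of 338 miRNA were called (27.5%) and 0 of the 3 members. edgeR gave 0 members at an unadjusted p of 0.05, beside 126 of all miRNA, and DESeq2 called 0, beside 108. The log2 fold change was -0.56 (SE 0.37, FDR 0.315) for miR-15b-5p, with 3 of 3 CPC-EV libraries below all hiPSC-EV libraries. Without hiPSC-EV replicate 3 it was -0.09. The value was 0.12 (SE 0.33) for miR-16-5p and -0.12 (SE 0.57) for miR-503-5p. The sign was not fixed for the latter 2: miR-503-5p was at 0.03 with scaling by library size only, and miR-16-5p at -0.06 with dispersions taken from all 12 libraries. The median over all tested miRNA was -0.27.

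From CPC-EV to CMi-EV, 83 of 292 miRNA were called (28.4%) and 0 of the 3 members. edgeR gave 0 members at an unadjusted p of 0.05, beside 105 of all miRNA, and DESeq2 called 0, beside 93. miR-15b-5p had a log2 fold change of -0.78 (SE 0.34, FDR 0.148), with 3 of 3 CMi-EV libraries below all CPC-EV libraries. It was called with scaling by library size only, at -1.29 (FDR 0.0248, and 0.0248 to 0.634 over all alternatives), where the median over all miRNA was -0.52 in place of -0.05. miR-16-5p was at -0.70 (SE 0.38, FDR 0.244) and miR-503-5p at 0.83 (SE 0.50, FDR 0.295).

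From CMi-EV to CMm-EV, 41 of 247 miRNA were called (16.6%) and 0 of the 3 members. edgeR gave 0 members at an unadjusted p of 0.05, beside 67 of all miRNA, and DESeq2 called 0, beside 55. The log2 fold changes were -1.19 (SE 1.38) for miR-15b-5p, -0.29 (SE 0.68) for miR-16-5p and -0.81 (SE 0.53) for miR-503-5p, beside a median of -0.29. Without CMm-EV replicate 1 the value of miR-15b-5p was -0.60 and that of miR-16-5p was 0.12, so the sign of the latter rests on that library.

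From hiPSC-EV to CMi-EV, 140 of 338 miRNA were called (41.4%) and 1 of the 3 members, a share near that background. miR-15b-5p fell by 1.55 on the log2 scale (SE 0.44, FDR 0.0262), with 3 of 3 CMi-EV libraries below all hiPSC-EV libraries. The median over all miRNA was -0.55, and 34.9% of the tested miRNA had a lower fold change. The call rests on single libraries: without hiPSC-EV replicate 2 the value was -1.68 with an FDR of 0.0556, and without hiPSC-EV replicate 3 it was -1.10 with an FDR of 0.0860. It was also lost with dispersions taken from all 12 libraries (-1.69, FDR 0.243). Over all alternatives the log2 fold change ran from -2.06 to -1.10 and the FDR from 0.00469 to 0.243. DESeq2 called it as well (-1.33, FDR 0.00469). miR-16-5p was at -0.78 (SE 0.42, FDR 0.184), with 3 of 3 CMi-EV libraries below all hiPSC-EV libraries, and was called at -1.38 (FDR 0.0397, up to 0.413 under the other alternatives) without CMi-EV replicate 2. miR-503-5p was at 0.52 (SE 0.51, FDR 0.473), and from 0.113 to 0.873 with 1 library left out. Without CMi-EV replicate 3, where it was at 0, miR-15a-5p passed the filter through CMi-EV alone and was called as higher there (log2 fold change 3.67), a direction that the filter fixed.

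From CPC-EV to CMm-EV, 130 of 292 miRNA were called (44.5%) and 0 of the 3 members. edgeR gave 0 members at an unadjusted p of 0.05, beside 146 of all miRNA, and DESeq2 called 0, beside 149. miR-15b-5p was at -1.73 (SE 1.37, FDR 0.352), and without CMm-EV replicate 1 it was called at -1.20 (FDR 0.0201, and 0.0201 to 0.412 over all alternatives). miR-16-5p was at -0.78 (SE 0.64, FDR 0.360) and was called with scaling by library size only, at -2.26 (FDR 0.0108, up to 0.489 under the other alternatives). Without CMm-EV replicate 1 its value was -0.39, and without CMm-EV replicate 3 it was -1.46. miR-503-5p was at 0.18 (SE 0.54), but at -0.98 with library size only, -0.26 with the authors' library totals and -0.03 with median-of-ratios factors. The median over all miRNA was -0.44, and -1.70, -0.96 and -0.66 under those 3 scalings.

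From hiPSC-EV to CMm-EV, the ends of the series, 180 of 336 miRNA were called (53.6%) and 0 of the 3 members. In edgeR 1 member reached an unadjusted p of 0.05, beside 211 of all miRNA, and DESeq2 called 0, beside 207. miR-15b-5p was at -3.18 (SE 1.28, FDR 0.0885), with 3 of 3 CMm-EV libraries below all hiPSC-EV libraries. Without CMm-EV replicate 1, its library at 0, it was called at -2.26 (FDR 0.00672). miR-16-5p was at -1.503 (SE 0.60, FDR 0.0720), also with 3 of 3 below, and was called without CMm-EV replicate 3, at -1.90 (FDR 0.0473), while without CMm-EV replicate 1 it was at -0.80 (FDR 0.150). Both were called with scaling by library size only, at -3.62 (FDR 0.0482) and -1.96 (FDR 0.0107). Over all alternatives the FDR ran from 8.84e-07 (no filter) to 0.239 for miR-15b-5p and from 0.0107 to 0.279 for miR-16-5p. miR-503-5p was at -0.58 (SE 0.52, FDR 0.382). Without hiPSC-EV replicate 1, miR-424-5p passed the filter through the 2 other hiPSC-EV libraries alone and was called. It was listed at 0 in CMm-EV, so the filter let it in only for the group where it was read. Of all 336 miRNA, 226 (67.3%) had a fold change below 0. The median over all miRNA was -1.53, and -1.20, -1.40 and -1.97 with median-of-ratios factors, the authors' totals and library size only. Against the reported median, miR-16-5p stood at the 50.3rd percentile of all fold changes, miR-15b-5p at the 33.3rd and miR-503-5p at the 59.8th.

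**Figure D3:**
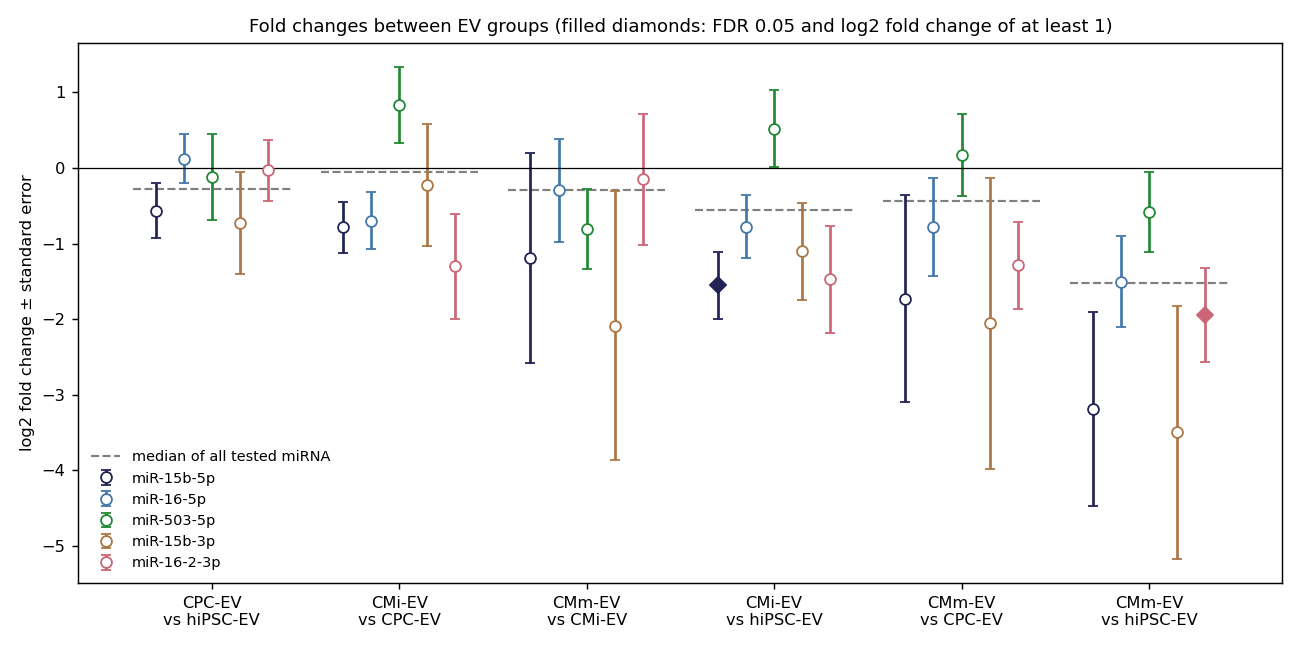
Log2 fold change with its standard error for the 3 members that passed the filter and the passenger arms miR-15b-3p and miR-16-2-3p, in the 6 comparisons of 2 EV groups (first named against second), with the median of all tested miRNA as a dashed line. Filled diamonds mark the 2 calls, miR-15b-5p at -1.55 in CMi-EV against hiPSC-EV and miR-16-2-3p at -1.94 in CMm-EV against hiPSC-EV.

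**Figure D4:**
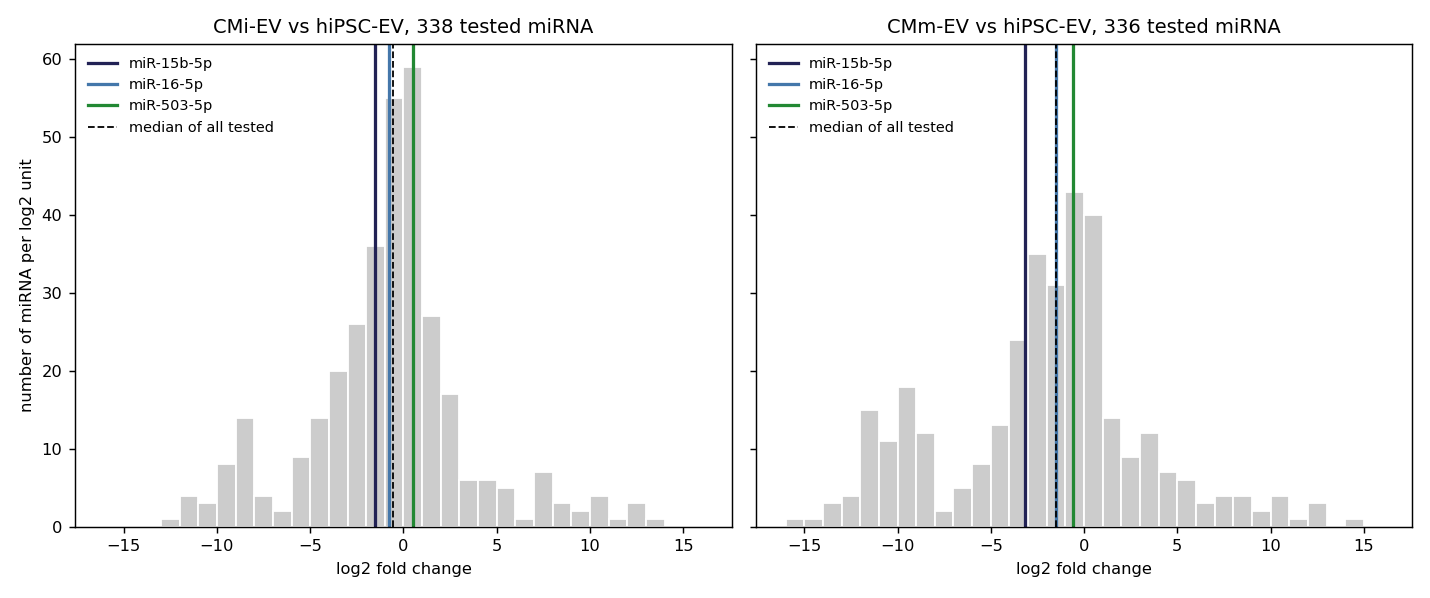
Number of tested miRNA by log2 fold change, in bins of 1 log2 unit, for CMi-EV against hiPSC-EV (338 miRNA) and CMm-EV against hiPSC-EV (336 miRNA). Coloured lines mark the 3 members and the dashed line the median, on which miR-16-5p lies in the latter comparison.

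The list of related miRNA, made of other arms of the members' hairpins, neighbours in their clusters and both arms of miR-6838, had 16 entries, of which 9 were among the miRNA counted and 5 passed the filter. miR-15b-3p and miR-16-2-3p are the passenger arms from the chr3 pair of hairpins.
miR-15b-3p: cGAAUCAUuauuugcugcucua
miR-16-2-3p: cCAAUAUUacugugcugcuuua

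miR-16-2-3p can come only from MIR16-2, so it separates that locus from MIR16-1. It was at 169, 149.5 and 234 CPM in hiPSC-EV and 136, 179 and 94.9 CPM in CPC-EV. In CMi-EV it was at 21.5, 40.8 and 109.8 CPM, and in CMm-EV at 103, 39.4 and 35.5 CPM. All CMi-EV and CMm-EV libraries lay below the lowest hiPSC-EV library. From hiPSC-EV to CMm-EV 180 of 336 miRNA were called (53.6%), and 1 of the 5 related miRNA, a lower share. This was miR-16-2-3p, which fell by 1.94 on the log2 scale (SE 0.62, FDR 0.0370), beside the median of -1.53. The call was lost without hiPSC-EV replicate 1 (-1.93, FDR 0.0659), replicate 2 (-2.06, FDR 0.0788) or replicate 3 (-1.66, FDR 0.119), without CMm-EV replicate 2 (-1.82, FDR 0.0549), and with dispersions from all 12 libraries (-1.44, FDR 0.116). Over all alternatives the FDR ran from 0.00468 to 0.119. From hiPSC-EV to CMi-EV it was at -1.47 (SE 0.71, FDR 0.151), and it was called at -2.60 without CMi-EV replicate 3. From CPC-EV to CMm-EV it was at -1.29 (SE 0.57, FDR 0.124), where DESeq2 called it (-1.48, FDR 0.0291, up to 0.302 under the other alternatives). It was also called there without CMm-EV replicate 1, at -1.82, and with library size only, at -2.23. miR-15b-3p was at 141, 77.3 and 127 CPM in hiPSC-EV and at 86.1, 51.2 and 21.9 CPM in CPC-EV. In CMi-EV it was at 43.1, 63.3 and 32.5 CPM. In CMm-EV it was at 0, 34.9 and 0 CPM, so both arms of MIR15B were at 0 in CMm-EV replicate 1. It was not called in any comparison, and from hiPSC-EV to CMm-EV its FDR was 0.142. With no filter on low values it was called there, and without CMm-EV replicate 2, which leaves CMm-EV libraries at 0 alone, it was called in the 4-group test and in the 3 comparisons with CMm-EV.

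From the X-linked cluster, miR-450a-5p and miR-450b-5p were read in all 12 libraries and miR-542-3p in 8. miR-450a-5p was at 8.10, 82.9 and 101 CPM in hiPSC-EV, against 88.6 to 160.3 CPM in CPC-EV, 130.3 to 329 CPM in CMi-EV and 110.1 to 178 CPM in CMm-EV. All CMi-EV and CMm-EV libraries lay above all hiPSC-EV libraries. Its largest fold change, from hiPSC-EV to CMi-EV, was 1.84 (SE 0.89, FDR 0.154). miR-450b-5p was lowest in hiPSC-EV replicate 1 at 27.8 CPM and highest in CMi-EV replicate 3 at 277 CPM. Neither these nor miR-542-3p was called in any comparison tested.

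Ratios between members of 1 library do not depend on scaling, and 3 of the 4 planned ratios could be run. They were compared between the 4 groups with an exact permutation test over all 15400 divisions of the 12 libraries, on the log2 ratio of counts with 0.5 added to each. The p-value was 0.442 for miR-424-5p to miR-424-3p, the arms of MIR424, 0.489 for miR-424-5p to miR-503-5p, neighbours on the X chromosome, and 0.596 for miR-15a-5p to miR-15b-5p, the close relatives on different chromosomes. Adjusted over the 3 ratios by Benjamini-Hochberg, the value was 0.596 for each. The largest differences between group means were 5.94, 3.86 and 5.29 (log2), against pooled standard deviations within groups of 4.83, 3.04 and 4.59. In these sparse members a count of 0 sets the ratio: both arms of MIR424 were counted in 3 of the 12 libraries.

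The following ratios were chosen after the values were seen and carry no test. The log2 ratio of miR-16-5p to miR-15b-5p was -0.65, -0.91 and -1.36 in hiPSC-EV and -0.36, -0.61 and -0.18 in CPC-EV. It was -0.66, 0.68 and -0.90 in CMi-EV, and 6.54, -0.24 and 0.98 in CMm-EV, where the first value is set by the count of 0 for miR-15b-5p. miR-15b-5p was thus the higher of the 2 in every hiPSC-EV and CPC-EV library, and in 3 of the 6 cardiomyocyte libraries. The log2 ratio of miR-503-5p to miR-16-5p averaged -1.55 ± 0.69, -1.81 ± 0.30, -0.18 ± 0.74 and -0.47 ± 1.54 by stage, from hiPSC-EV to CMm-EV (SD, n = 3). The CMm-EV values were 1.24, -0.89 and -1.76, so replicate 1 alone raised that mean above those of hiPSC-EV and CPC-EV by this much. The ratio of miR-16-5p, from both MIR16 loci, to miR-16-2-3p, from MIR16-2 alone, averaged 0.89 ± 0.15, 1.04 ± 0.68, 1.84 ± 1.53 and 1.29 ± 1.96. It was 2.93, 2.49 and 0.09 in CMi-EV and -0.88, 1.84 and 2.92 in CMm-EV, so single libraries set the order of these 2 means. The ratio of miR-15b-5p to miR-15b-3p averaged 2.56 ± 0.82, 2.95 ± 1.18 and 2.17 ± 0.86 up to CMi-EV. In CMm-EV this ratio could be read in replicate 2 alone, at 2.25, since miR-15b-3p had no count in the others. miR-450a-5p to miR-503-5p was -4.22 in hiPSC-EV replicate 1 and between -0.45 and 1.45 in the other libraries.

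The miRNA most alike in profile were found by the root mean square difference in log2 CPM over the 12 libraries, after each miRNA was centred on its mean, among 359 miRNA outside the family and its relatives. For miR-15b-5p they were miR-93-3p (0.58), miR-374a-3p (0.69) and miR-532-5p (0.86). For miR-16-5p they were miR-191-5p (0.39), miR-320a-3p (0.53) and miR-744-5p (0.54). For miR-503-5p they were miR-1307-3p (0.33), miR-340-3p (0.42) and miR-574-5p (0.47). By the same measure the distances among the members were 1.83 between miR-15b-5p and miR-16-5p, 1.02 between miR-16-5p and miR-503-5p, and 2.57 between miR-15b-5p and miR-503-5p, and those of miR-15b-5p include its library at 0. The nearest miRNA were picked as the closest, so these values are not a comparison with them.

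Markers of other cell types were read beside the members. Of the 5 blood markers 4 were counted, and only miR-486-5p was tested and called. Its levels were 5291, 7088 and 8609 CPM in hiPSC-EV, 896.5, 814 and 1148 CPM in CPC-EV, 2046, 2075 and 726 CPM in CMi-EV, and 825.5, 767 and 905 CPM in CMm-EV. It made nearly all of the list's sum, which averaged 7026, 980.2, 1616 and 833.8 CPM. miR-486-5p is also known as a miRNA of striated muscle, so it does not mark blood alone. The erythroid marker miR-451a averaged 3.15, 23.7, 0 and 1.16 CPM by stage, from hiPSC-EV to CMm-EV, miR-144-3p was read in 1 library, and miR-150-5p was read in hiPSC-EV alone, at 0, 38.1 and 42.9 CPM. From hiPSC-EV to CPC-EV miR-486-5p fell by 2.43 on the log2 scale (FDR 0.000659), where no member or related miRNA was called. It fell by 1.89 (FDR 0.00836) from hiPSC-EV to CMi-EV, where miR-15b-5p was called, and by 3.40 (FDR 0.000268) from hiPSC-EV to CMm-EV, where miR-16-2-3p was called. Its part in the result was not tested.

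The smooth muscle and fibroblast list, with miR-143-3p the most abundant, had 4 of 5 entries counted, 3 tested and 2 called. Its sum averaged 331, 2993, 43160 and 169800 CPM, so it was highest where the family's share was lowest, and its part in that was not tested. The endoderm and liver list averaged 1786, 7351, 4802 and 3211 CPM (4 tested, 2 called). Its most abundant entry was miR-375-3p in CPC-EV, at a mean of 4020 CPM, and miR-192-5p in the other groups, and the entries called were miR-375-3p and miR-122-5p. The 2 endothelial markers averaged 93.7, 69.6, 63.9 and 16.1 CPM and were not called by edgeR (FDR 0.528 for miR-126-3p and 0.435 for miR-126-5p), and the 2 neural markers, both called, averaged 281, 67.8, 36.3 and 0 CPM.

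The same libraries hold fragments of longer transcripts, at much lower counts, with totals from 131423 (CMm-EV replicate 1) to 1908539 (hiPSC-EV replicate 3). The floor of 3 counts came to between 1.96 CPM (CPC-EV replicate 2) and 12.7 CPM (CMm-EV replicate 1). Such fragments show RNA carried in vesicles and not the level of a transcript in the cells. In the 4-group test 1137 of 3402 transcripts were called (33.4%).

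Of 10 known targets of the family, 9 were counted, 4 passed the filter (CCND1, CCND2, CDC25A and CHEK1) and 2 were called. CDC25A, a phosphatase that activates cyclin-dependent kinases, had 14, 14 and 12 counts in hiPSC-EV and 0 in the other 9 libraries (FDR 0.0110). CHEK1, a checkpoint kinase, had 1, 19 and 31 counts in hiPSC-EV, 36, 39 and 62 in CPC-EV and 0 in CMi-EV and CMm-EV (FDR 0.0266). The call of CHEK1 was lost without any 1 of the hiPSC-EV libraries, and both calls were lost with no filter on low values. CCND1, cyclin D1, had 25, 18 and 14 counts in hiPSC-EV and 36, 0 and 14 in CPC-EV (FDR 0.147). It had 32, 0 and 22 counts in CMi-EV and 0 in CMm-EV. CCND2, cyclin D2, had an FDR of 0.629. The summed level of the targets was 139, 222 and 419.5 CPM in hiPSC-EV and 222, 140.1 and 218 CPM in CPC-EV. It was 64.9, 318 and 139.8 CPM in CMi-EV and 191, 9.57 and 27.8 CPM in CMm-EV, so the groups overlapped. CDC25A passed the filter only through hiPSC-EV and CHEK1 only through CPC-EV, the group in which each was highest, so the count of targets called is no support for a shared change. CCNE1 was not analysed here.

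Of 26 general cell cycle transcripts all were counted, 10 passed the filter and 6 were called: AURKB, CCNB1, CENPF, MCM4, PCNA and TOP2A. The list holds the inhibitors CDKN1A, CDKN1B, CDKN1C and RB1 beside genes that drive division. The summed level over all 26 was 619, 991.7 and 945 CPM in hiPSC-EV and 621, 740.2 and 385 CPM in CPC-EV. It was 76.7, 224 and 128 CPM in CMi-EV and 89.0, 93.3 and 43.6 CPM in CMm-EV. All cardiomyocyte libraries lay below all hiPSC-EV and CPC-EV libraries. Inhibitors made up much of the sum in some of them: CDKN1B, which was at 0 in hiPSC-EV, was at 0, 88.8 and 120.4 CPM in CMi-EV, and CDKN1A was at 80.5 CPM in CMm-EV replicate 1. The number of the 26 with any count was 12, 19 and 21 in hiPSC-EV, and 18, 15 and 10 in CPC-EV. The cardiomyocyte libraries held fewer, with 3, 5 and 2 in CMi-EV and 3, 4 and 2 in CMm-EV. The totals of transcript counts differ between these libraries, and their part in the result was not tested. The replication clamp PCNA had 11, 90 and 35 counts in hiPSC-EV, 7, 257 and 68 in CPC-EV and 0 in all CMi-EV and CMm-EV libraries (FDR 0.0173). TOP2A, which untangles replicated DNA, had 25, 80 and 110 counts in hiPSC-EV, 11, 0 and 0 in CPC-EV, 0 in CMi-EV and 0, 0 and 1 in CMm-EV (FDR 0.0217). Without hiPSC-EV replicate 3 the called transcripts were CCNB1 and PCNA (2), and with no filter on low values they were CENPF, PCNA and TOP2A (3). The transcripts that passed did so through the groups where they were read, so their count is no sign of a shared change.

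**Figure D5:**
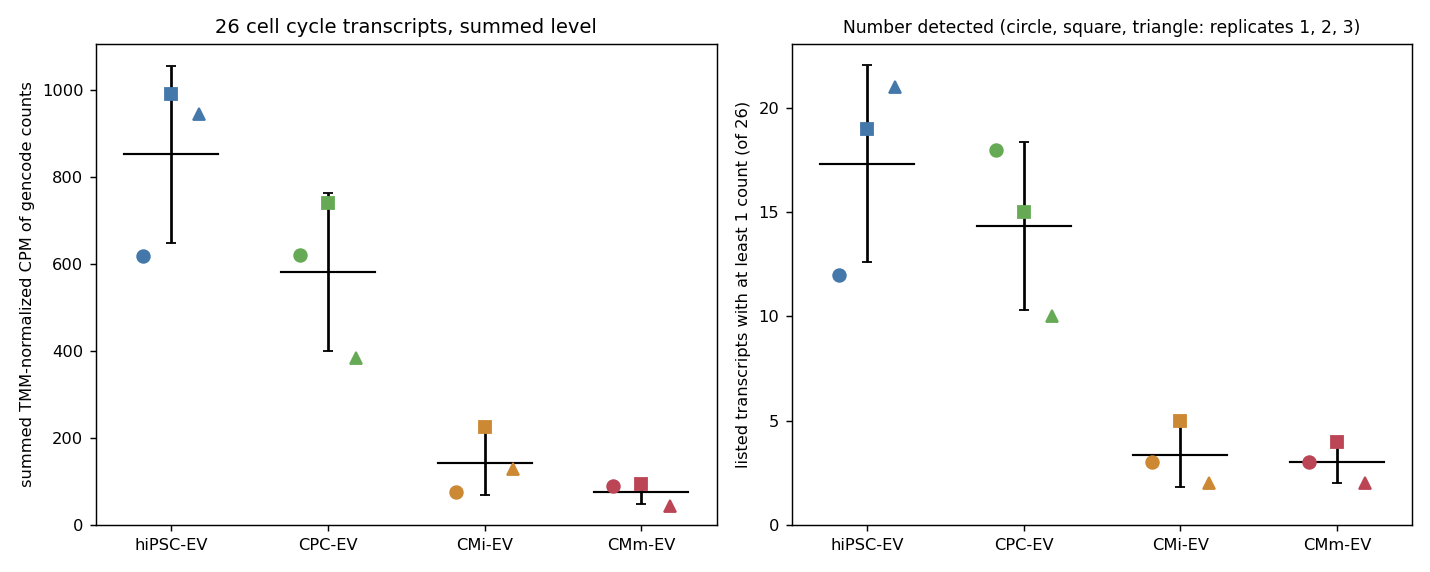
Summed level of the 26 cell cycle transcripts (TMM-normalised CPM of transcript counts, left) and the number of them with any count (right) in each of the 12 libraries, by EV group, with mean and SD (n = 3). The sum lies between 385 and 991.7 CPM in hiPSC-EV and CPC-EV and between 43.6 and 224 CPM in CMi-EV and CMm-EV.

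Fragments of the host transcripts, listed together with DLEU1, which hosts no member, were rarer still. Of 5 listed, 3 were counted (DLEU2, DLEU1 and SMC4) and 0 passed the filter, so none was tested by either tool. DLEU2, host of MIR15A and MIR16-1, was read in CPC-EV replicate 2 alone, at 18.2 CPM. SMC4, host of MIR15B and MIR16-2, was at 0, 46.2 and 18.6 CPM in hiPSC-EV, at 10.8, 22.8 and 0 CPM in CPC-EV and at 29.5 CPM in CMi-EV replicate 1, and at 0 elsewhere. DLEU1 was read in hiPSC-EV replicates 2 and 3 alone, at 53.5 and 35.8 CPM. The summed level of the 3 was 0, 99.7 and 54.4 CPM in hiPSC-EV, 10.8, 41.1 and 0 CPM in CPC-EV, 29.5, 0 and 0 CPM in CMi-EV, and 0 in all CMm-EV libraries, whose floors were 12.7, 7.17 and 11.9 CPM. The highest hiPSC-EV sums lay above these floors, and no difference was tested.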

How the data were processed

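Small RNA libraries of 12 EV preparations were analysed. The authors mapped reads to hg38 with the exceRpt pipeline, and the deposited tables used hold expected counts, which the authors made with that pipeline as estimated counts per miRNA and per GENCODE transcript, with reads shared between features split. The deposited RPM values, which the authors scaled to the total of each library over all RNA classes, were used only to recover library totals. Fractions (tolerance 1e-06) made up 9.11% of the miRNA values above 0, and counts were rounded. The fits used R 4.3.3 and edgeR 4.0.16 (TMM, quasi-likelihood tests) on the whole table, with Benjamini-Hochberg adjustment over all miRNA tested. A miRNA was tested if all 3 libraries of any group had 5 CPM or more. DESeq2 1.42.0 was the other tool, limma was at 3.58.1, and Python 3.11.15 with scipy 1.17.1 ran the exact permutation tests. Nearest profiles used log2 of CPM plus 1. The fits were tested on simulated data.

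The members and lists (related miRNA, 7 marker lists, target, cell cycle and host transcripts) were chosen with earlier results of these data known. Named were all members, the related miRNA that passed the filter, the 3 nearest miRNA of each member that passed, the listed transcripts called and the marker miRNA. Others are named where a count or a single library called for it, after their values were seen. The alternatives were median-of-ratios factors, library size only, the authors' library totals, no filter, the filterByExpr function of edgeR, DESeq2, robust fitting, dispersions from all 12 libraries, a replicate block, each library left out in turn, and 0.1 or 1 in place of 0.5 counts in ratios. The authors' normalised tables and the circular RNA, piRNA and tRNA tables were left out, since counts were at hand and the latter hold no member. The ratio of miR-195-5p to miR-497-5p was not run.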

Additional observations from a re-analysis of the deposited data

How the results depend on the processing

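Across the alternatives, 664 of 741 recomputed values stayed the same, among them 93 of 110 counts of members called and 496 of 550 values of single miRNA. For tests this meant the same side of the threshold, and for fold changes the same direction too. Counts had to stay within 1.5 times. The largest differences of ratios had to move by less than the pooled SD within groups (4.83, 3.04 and 4.59), a wide limit that all of them met. The number of members called was 0 under all alternatives from hiPSC-EV to CPC-EV and from CMi-EV to CMm-EV. The number of all miRNA called ran from 39 of 338 to 129 of 411 in the former, and from 17 of 247 to 60 of 276 in the latter.

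With scaling by library size only, 1 of 3 members was called in the 4-group test (miR-16-5p), beside 199 of 367 miRNA in all. From CPC-EV to CMi-EV it was 1 of 3 (miR-15b-5p), beside 87 of 292. From CPC-EV to CMm-EV it was 1 of 3 (miR-16-5p), beside 145 of 292, and from hiPSC-EV to CMm-EV 2 of 3, beside 199 of 336. With no filter on low values, 1 of 7 members (miR-15b-5p) was called in the 4-group test, beside 195 of 1126 miRNA. From hiPSC-EV to CMm-EV 1 member was called, beside 207 of 1032 miRNA. The called targets then went from 2 to 0 and the called cell cycle transcripts from 6 to 3. With dispersions from all 12 libraries, 0 of 3 members were called from hiPSC-EV to CMi-EV, beside 127 of 338 miRNA. The cause was not tested in any of these.

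With each library left out in turn, 0 to 1 members were called in the 4-group test, of 3 to 5 tested. All miRNA called there ran from 154 of 373 to 201 of 400. From hiPSC-EV to CMi-EV 0 to 2 members were called, beside 123 of 346 to 176 of 418 miRNA. From CPC-EV to CMm-EV it was 0 to 1, beside 118 of 302 to 166 of 344. From hiPSC-EV to CMm-EV it was 0 to 1, beside 153 of 343 to 218 of 415. Called targets ran from 1 to 2 and called cell cycle transcripts from 2 to 8. The largest differences of the ratios ran from 4.36 to 9.57, 3.17 to 5.60 and 3.20 to 7.89 (log2). A group of 2 libraries has fewer libraries behind its filter, so more miRNA are tested.

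The sign of a log2 fold change turned, to a value at least 0.01 from 0, in these cases, none of them called, and the cause was not tested. From hiPSC-EV to CPC-EV miR-16-2-3p was at 0.10 (0.101 with median-of-ratios factors, 0.098 with library size only, 0.104 with DESeq2), miR-503-5p at 0.031 with library size only and miR-16-5p at -0.06 with dispersions from all 12 libraries. From CMi-EV to CMm-EV miR-16-2-3p was at 0.019 with dispersions from all 12 libraries, and nearer to 0 than that limit, at 0.002, with median-of-ratios factors. From CPC-EV to CMm-EV miR-503-5p was at -0.029 with median-of-ratios factors, -0.977 with library size only, -0.262 with the authors' totals and -0.034 with DESeq2. With 1 library left out, the ranges that crossed 0 were, from hiPSC-EV to CPC-EV, -0.197 to 0.193 (miR-16-2-3p), -0.507 to 0.222 (miR-503-5p) and -0.05 to 0.322 (miR-16-5p). From CPC-EV to CMi-EV it was -0.645 to 0.341 (miR-15b-3p), from CMi-EV to CMm-EV -0.746 to 0.882 (miR-16-2-3p) and -0.96 to 0.12 (miR-16-5p), and from CPC-EV to CMm-EV -0.054 to 0.343 (miR-503-5p).

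Replicate numbers gave no clear sign of pairing. Profiles with the same number correlated at -0.120 to 0.0975 after group means were removed (18 pairs), and those with different numbers at -0.125 to 0.126 (36 pairs). Of the 12 libraries, 6 lay closest to their own number. With 3 libraries in each group, these values cannot show that libraries of the same number were unrelated. With the replicate number as a block, 0 of 3 members were called from hiPSC-EV to CMi-EV, beside 99 of 338 miRNA. miR-15b-5p was there at -1.503 (FDR 0.0665, and 0.00469 to 0.243 over all alternatives). miR-16-2-3p from hiPSC-EV to CMm-EV was at -2.10 (FDR 0.101) with this block. The block left 2 targets and 6 cell cycle transcripts called, and ratios at an adjusted exact permutation p of 0.564.

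Each group had 3 libraries, and miRNA totals differed most between replicates in hiPSC-EV (703418 to 5598296) and CMm-EV (984868 to 6272456). A level under 12.7 CPM was below the floor of the library with the fewest transcript counts, and one under 3.63 CPM below the highest floor for miRNA. Members at 0 in some libraries were read well above these floors in others.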
